A study of Arabidopsis thaliana with 12 samples.

Results

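ICU4 and ATHB8 are close paralogues among the HD-ZIPIII proteins of Arabidopsis thaliana, transcription factors with a homeodomain and a leucine zipper, and the sites at which each was found near genes are compared here. ICU4 is the product of ATHB15 (AT1G52150), also called CORONA, and ATHB8 is the product of AT4G32880. The sites were the chromatin immunoprecipitation (ChIP-seq) peaks on the 5 nuclear chromosomes whose summit lay inside a protein-coding gene or within 2000 bp of one. This kept 8319 of 8964 nuclear ICU4 peaks (92.8%) and 1416 of 4813 nuclear ATHB8 peaks (29.4%), so 9735 peaks of the 38038 nuclear peaks in the 6 lists of the series. A site was called shared when an ICU4 and an ATHB8 peak had at least 1 bp in common.

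Both transgenic lines were of the Landsberg erecta (Ler) ecotype, were raised on agar under long days and were used as seedlings at 10 days of age. In one the ICU4 locus and in the other the ATHB8 locus was fused at its C-terminal end to a 2xYPet-3xHA tag, where YPet is a yellow fluorescent protein. The same anti-GFP antibody was used for both, and each precipitate was set against input DNA of its own line. No precipitate from untagged plants is among the samples. Peaks of a tagged protein and unspecific precipitation, also at sites common to several lists, therefore cannot be told apart. The labels do not give the number of independent lines, the copies of each construct or the state of the untagged allele, and seedlings mix cells that contain the protein with cells that do not. Chromatin was prepared in duplicate, but each protein is represented by 1 list. Values therefore carry no replicate error, differences between proteins and between libraries cannot be told apart, and no test was run. Intervals are Wilson 95% intervals and cover counting error only, since peaks are not replicates.

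HD-ZIPIII proteins bind DNA as dimers through a homeodomain and an adjoining leucine zipper. Their messages are cut by the microRNAs of the miR165/166 family, which restricts them to the upper side of leaves, the shoot meristem and the vascular tissue. ATHB8 is best known as an early marker and promoter of procambium and xylem formation, and CORONA for its roles in the meristem and the vasculature, partly overlapping those of its relatives. TOPLESS (TPL) is a co-repressor that transcription factors bring to DNA.

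All 9041 rows of the ICU4 list carry the peak name CNA, which the gene table lists as a synonym of ATHB15 beside CORONA and ICU4. At the 2 tagged genes themselves the lists did not mirror each other. The ICU4 list held 6 peaks assigned to ATHB15. The strongest, with a fold enrichment of 7.98, had its summit 923 bp outside the gene at position 19415687 of chromosome 1. The other 5 summits lay inside the gene, with fold enrichments from 2.36 to 3.24, and none of these 5 overlapped a peak of another tagged protein. The ATHB8 list held 1 peak assigned to ATHB8, 681 bp outside the gene, with a fold enrichment of 2.54. No ATHB8 peak was assigned to ATHB15 and no ICU4 peak to ATHB8. Local background, computed as (pileup + 1)/fold enrichment − 1, was 11.3 to 12.9 at the 6 ICU4 peaks of ATHB15, where unshared ICU4 peaks had a median of 6.9. At the ATHB8 peak of ATHB8 it was 15.5, where unshared ATHB8 peaks had a median of 7. A tagged construct can add copies of its own locus to precipitate and input alike, and the part of this in the peaks at ATHB15 and ATHB8 was not tested.

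Shared sites took up a moderate share of the near-gene ATHB8 peaks and a small share of the near-gene ICU4 peaks. The near-gene limit had kept 29.4% of the nuclear ATHB8 and 92.8% of the nuclear ICU4 peaks. An ICU4 peak was met by 434 of the 1416 ATHB8 peaks, or 30.6% (interval 28.3 to 33.1). They fell into 339 of the 8319 ICU4 peaks, or 4.08% (3.67 to 4.52). The counts 434 and 339 differ because 71 ICU4 peaks each held 2 or more ATHB8 peaks. The median width was 221 bp for ICU4 and 83 bp for ATHB8. The percentages also rest on lists of unlike length. With the ICU4 list reduced to the ATHB8 length they were 22.1% of ATHB8 and 16.2% of ICU4 peaks. The most divided was the ICU4 peak over DIN10 (AT5G20250), a dark-inducible gene of the raffinose synthase family, where 6 ATHB8 peaks with fold enrichments of 2.26 to 3.82 lay in a stretch of 2515 bp. The ICU4 peak held 4 ATHB8 peaks at MYC2, the central transcription factor of jasmonate signalling, ASN1, an asparagine synthetase gene, ATCTH and AT3G15450. By chromosome, the shared part of the near-gene ATHB8 peaks ran from 26.8% on chromosome 5 to 35.1% on chromosome 3.

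The remaining peaks were mostly not near misses. Of the 982 ATHB8 peaks outside ICU4 peaks, 50 had an ICU4 summit within 500 bp (5.09%), while for 652 (66.4%) the nearest ICU4 summit was over 5000 bp away. Of the 7980 unshared ICU4 peaks, 60 had an ATHB8 summit within 500 bp (0.752%). At the 2000 bp limit itself, 28 ATHB8 summits lay in the last 100 bp inside it and 32 in the first 100 bp beyond. The ATHB8 peaks closest to the limit, at AT4G08960 (1992 bp away) inside and AT3G43153 (2001 bp away) outside, had fold enrichments of 3 and 3.51. For ICU4 the closest were at AT5G64250 (2000 bp, fold enrichment 5.74) and AT3G61820 (2002 bp, 6.86).

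Shared sites were among the strongest of the ICU4 list but held no such place in the ATHB8 list. Fold enrichment is the authors' value for a single peak and was read only as a percentile within each near-gene list, where 100 is the strongest. Shared ICU4 peaks had a median percentile of 93.8 (quartiles 71.3 and 98.4), against 48.6 for unshared ones. Their median fold enrichment was 5.7, against 3.12. Shared ATHB8 peaks had a median percentile of 47.2 (quartiles 23.7 and 70.3), against 51.6 for unshared ones, with median fold enrichments of 2.92 and 3. Of the shared ICU4 peaks, 200 (59%) were in the strongest 10% of their list, and 37 of the shared ATHB8 peaks (8.53%) were.

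**Figure D1:**
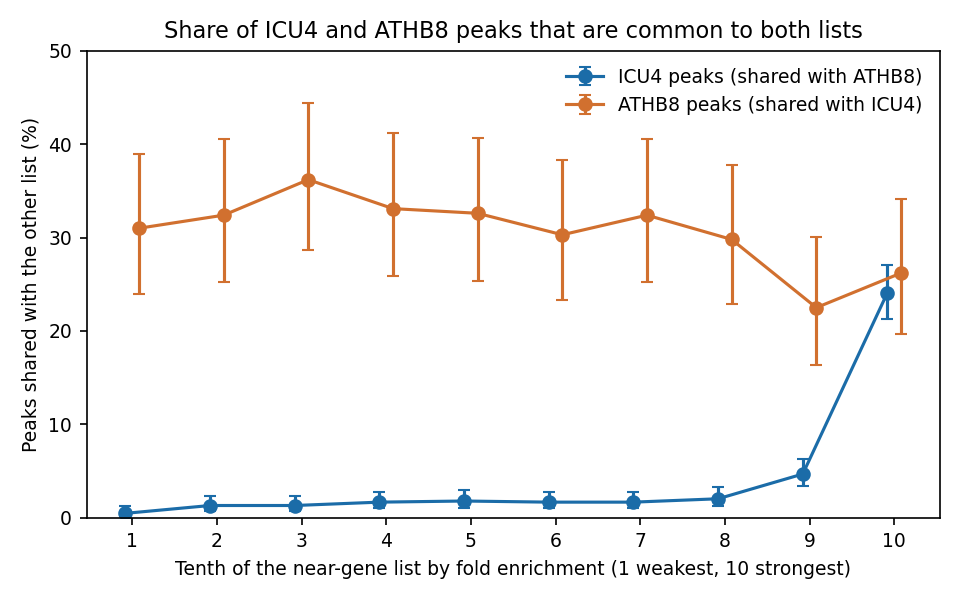
Percentage of near-gene peaks shared with the other list (vertical axis) in 10 equal classes of a list ordered by fold enrichment (horizontal axis, 1 weakest to 10 strongest). Points are percentages and bars are Wilson 95% intervals. For ICU4 the share stays at or below 2.04% up to class 8 and reaches 24.1% in class 10, while for ATHB8 it lies between 22.5% and 36.2% throughout.

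In the plot of sharing by strength, the ICU4 share was 0.481% (0.187 to 1.23) in class 1, 4.69% in class 9 and 24.1% (21.3 to 27.1) in class 10. The ATHB8 share was 31% (24 to 39) in class 1 and 26.2% (19.7 to 34.1) in class 10, with overlapping intervals. Strong ICU4 peaks were also wide, and a wide peak is met more easily. The median width was 560 bp for shared and 216 bp for unshared ICU4 peaks. Among ICU4 peaks of the lowest width class (141 to 162 bp), 0.601% of the weaker and 1.2% of the stronger were shared, with overlapping intervals. In the middle width classes 0.838% and 0.603%, 0.962% and 1.44%, and 1.78% and 3.17% were shared, again with overlapping intervals. In the highest width class (357 to 10438 bp), 4.77% (3.52 to 6.43) of the weaker and 25.6% (22.7 to 28.7) of the stronger were shared. Weaker and stronger are divided at the class median of fold enrichment. Widths range widely in that highest class, so width is not held equal there.

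To compare ranks site by site, each ICU4 peak was paired with the overlapping ATHB8 peak of the nearest summit, giving 339 pairs. The paired ATHB8 peak need not be the strongest under its ICU4 peak. The ICU4 percentile was the higher one in 280 pairs. Both percentiles were above 50 in 136 pairs, ICU4 alone in 148, ATHB8 alone in 22 and neither in 33. Across the pairs, Spearman's rho of the fold enrichments was 0.217, a description of sites that share the same 2 libraries. Both peaks were in the strongest 10% of their list in 26 pairs, of the 200 pairs where the ICU4 peak was and the 34 where the ATHB8 peak was.

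**Figure D2:**
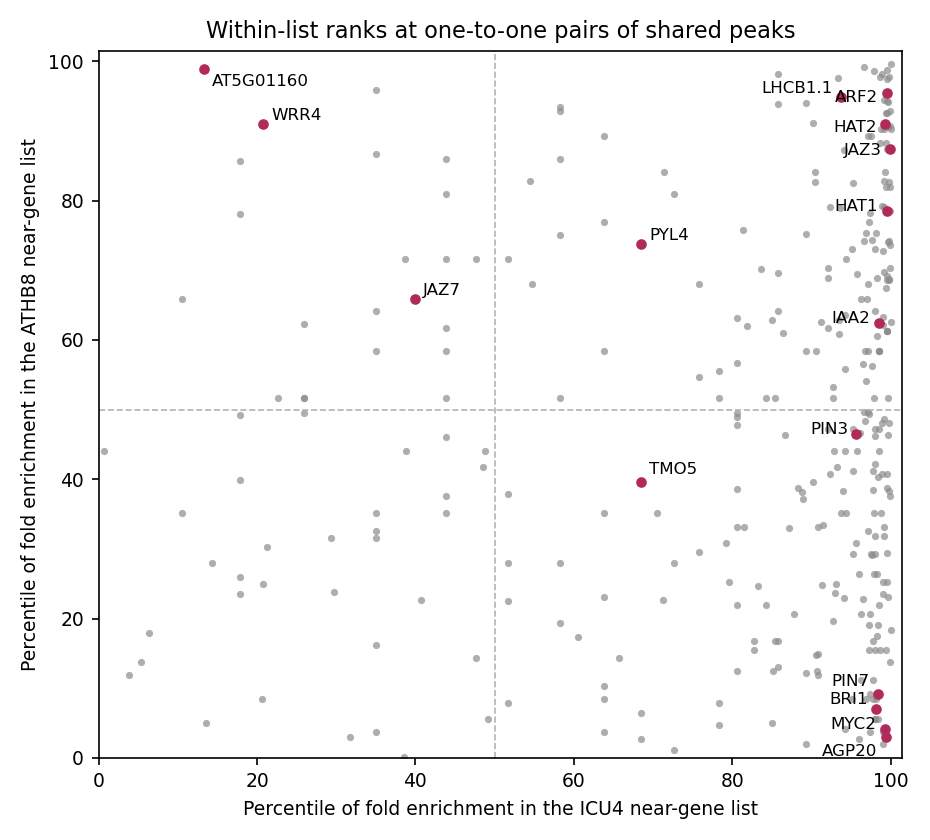
Percentile of fold enrichment in the ICU4 near-gene list (horizontal) against that in the ATHB8 near-gene list (vertical) for the 339 one-to-one pairs of shared peaks, where each point is a pair and named pairs are in colour. Dashed lines mark the 50th percentiles. Points crowd along the right edge, over the whole height of the plot: 200 pairs have an ICU4 peak in the strongest 10% of its list, and 34 an ATHB8 peak in the strongest 10% of its own.

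The 12 pairs with the best mean percentile lay mostly inside genes. First stood GT18 (AT5G62220), a xyloglucan galactosyltransferase gene on chromosome 5, where the ICU4 peak (24990451 to 24991359) had a fold enrichment of 22 and the ATHB8 peak (24990540 to 24990838) one of 5.04. At HMGB1 (AT3G51880), which encodes a high-mobility-group chromatin protein, ICU4 had 13.5 and ATHB8 4.73, with summits 37 bp apart inside the gene. TCH4, a touch-induced xyloglucan endotransglucosylase/hydrolase gene, had 7.85 and 4.67. STZ, which encodes a zinc-finger repressor of stress responses, had 9.24 and 4.5. The J-domain protein gene J11 had 9.91 and 4.55.

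ARF2 (AT5G62000), an auxin response factor gene whose product represses transcription, had fold enrichments of 12 for ICU4 and 4.15 for ATHB8. Its summits, at 24910298 and 24910293 on chromosome 5, were 5 bp apart inside the gene. UBQ11, a polyubiquitin gene, had 11.9 and 4.11, with summits 218 bp apart. Reads from polyubiquitin genes can map to near-identical repeats and copies, so its values are uncertain. The others of these 12 were AT5G12850 (18 for ICU4 and 4.51 for ATHB8), AT5G21940 (13.4 and 4.47), AT2G25250 (6.71 and 4.78), AT5G46910 (14.2 and 4.18) and AT2G22590 (14.4 and 4.08). Each of the 12 pairs also lay at a REV, a PHB, a PHV and a TPL peak. The summit was inside the gene in all but GT18 and AT5G46910.

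At some shared sites the fold enrichments of the 2 proteins stood at opposite ends of their lists. The ICU4 percentile exceeded that of ATHB8 by most at AT4G35025, where ICU4 had a fold enrichment of 10.5 (percentile 99.1) and ATHB8 2.1 (percentile 2.01), with summits 17 bp apart. It was followed by AGP20, an arabinogalactan protein gene (11.8 and 2.14), AT5G03370 (10 and 2.2), MYC2 (11 and 2.21) and EXO70H7, which encodes an exocyst subunit (7.34 and 2.2). In all 5 the local background of the ATHB8 peak was 10 to 12, where shared ATHB8 peaks had a median of 7.26. The pileups of these ATHB8 peaks, 23.2 to 26.3, were near the median of 23.9 for shared ATHB8 peaks. Their −log10 q-values were 1.41 to 1.69. The part of background in these low ranks was not tested. Of these 5, MYC2 alone held more than 1 ATHB8 peak under its ICU4 peak. The 2.21 is that of the peak with the nearest summit and the weakest of 4, and the strongest, 1464 bp from the ICU4 summit, had 3.33 (percentile 73.8), so the low rank at MYC2 rests on the pairing rule.

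In the other direction stood AT5G01160, with an ICU4 fold enrichment of 2.58 (percentile 13.3) and an ATHB8 fold enrichment of 4.74 (percentile 98.9). WRR4 (AT1G56510), an immune receptor gene for white rust resistance, had 2.7 and 3.89, AT1G18940 had 2.66 and 3.7, AT1G62610 had 2.91 and 4.23, and AT3G28430 had 2.66 and 3.42. The ICU4 peaks at AT5G01160, AT1G62610 and AT3G28430 overlapped no peak of REV, PHB, PHV or TPL. Among the 139 shared ICU4 peaks below the strongest 10% of their list, this held for 12.2%.

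The local background of the ATHB8 peaks moved with sharing. Computed as (pileup + 1)/fold enrichment − 1, it was at the lowest value of the list for 90 of 434 shared ATHB8 peaks (20.7%) and for 436 of 982 unshared ones (44.4%). For ICU4 the corresponding shares were 63.4% and 63.8%. Whether local background decides which ATHB8 peaks are shared was not tested.

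Among pairs of overlapping peaks the summits lay close together, with no side preferred. The pairs were chosen by overlap and by the nearest summit, so the widths of the peaks limit how far apart summits can lie. The offsets, and the shares of summits inside the other peak, are thus bounded in part by the choice of pairs. The ATHB8 summit was at the higher coordinate in 165 pairs, at the lower in 173 and on the same base in 1. The median absolute offset was 60 bp (quartiles 28 and 126). Offsets were within 25 bp in 79 pairs (23.3%, interval 19.1 to 28.1), within 50 bp in 139 (41%, 35.9 to 46.3) and within 100 bp in 234 (69%, 63.9 to 73.7). The ATHB8 summit fell inside the ICU4 peak in 330 pairs (97.3%), and the ICU4 summit inside the narrower ATHB8 peak in 167 (49.3%). The ICU4 peak covered the ATHB8 peak whole in 302 pairs, and 6 pairs overlapped by less than 20 bp.

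**Figure D3:**
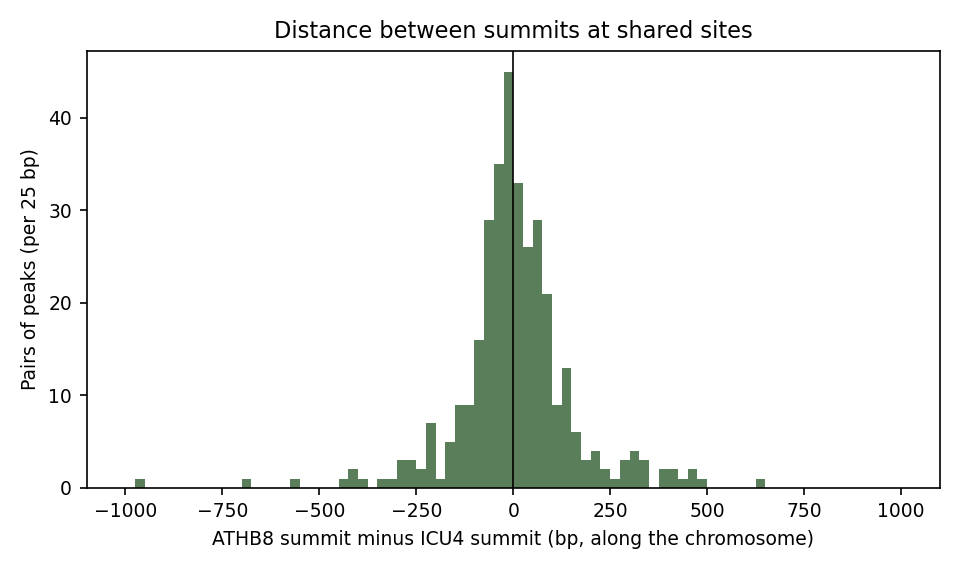
Number of one-to-one pairs of shared peaks (vertical, per 25 bp) by the position of the ATHB8 summit relative to the ICU4 summit along the chromosome (horizontal, bp). Pairs gather around 0, with 234 of 339 within 100 bp and a longest distance of 963 bp.

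Offsets were longer in wide peaks, where the overlap rule allows longer ones. The median was 55 bp where the ICU4 peak was up to 300 bp wide (63 pairs) and 74 bp where it was over 600 bp wide (153 pairs), and 81% and 58.2% of these pairs were within 100 bp. The longest offset was at ERF4 (AT3G15210), an ethylene response factor gene encoding a repressor, where the ICU4 summit lay 192 bp outside the gene at 5122754 on chromosome 3 and the ATHB8 summit inside it at 5121791. The next were RDUF2, a RING-type ubiquitin ligase gene (680 bp), and AT1G17620 (630 bp). In each of these 3 the ICU4 peak was over 1000 bp wide, with widths of 1710, 1531 and 1102 bp. Among sites with short offsets were PP2CG1, a type 2C protein phosphatase gene (3 bp), and WRKY33, a transcription factor gene of defence (8 bp), both named after their values were seen.

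Shared ATHB8 sites lay inside genes more often than unshared ones, while the ICU4 sites differed less. The summit was inside a protein-coding gene in 316 of 434 shared ATHB8 peaks (72.8%, interval 68.4 to 76.8), and in 34.3% of unshared ATHB8 peaks (31.4 to 37.3). For ICU4 it was inside in 68.1% of shared (63 to 72.9) and 72.4% of unshared peaks (71.4 to 73.3), with overlapping intervals. Of the unshared ATHB8 summits, 54.7% (51.6 to 57.8) lay over 500 bp outside a gene, against 15.9% (12.8 to 19.6) of the shared ones. For ICU4 the order was the opposite, with 18.9% (15.1 to 23.4) of shared and 11.4% (10.7 to 12.1) of unshared summits over 500 bp outside. Gene-poor surroundings, with under 10 protein-coding genes from 50 kb before to 50 kb after the summit, held 162 unshared ATHB8 peaks (16.5%, 14.3 to 18.9) and 7 shared ones (1.61%, 0.783 to 3.29).

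Other annotated features divided the sites as well. An annotated pseudogene covered the summit of 282 unshared ATHB8 peaks (28.7%, interval 26 to 31.6), of 12 shared ATHB8 peaks (2.76%, 1.59 to 4.77) and of 81 unshared ICU4 peaks (1.02%, 0.817 to 1.26). Transfer RNA genes held the summit of 116 unshared ICU4 peaks (1.45%). None of the 1416 near-gene ATHB8 summits lay in one: the upper interval bound was 0.877% for the 434 shared and 0.39% for the 982 unshared peaks.

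The other peak lists of the series, which played no part in choosing the sites, separated the shared from the unshared ATHB8 peaks. Shared ATHB8 peaks were met by a TPL peak in 378 of 434 cases (87.1%, interval 83.6 to 89.9), and unshared ones in 60 of 982 (6.11%, 4.78 to 7.79). These shares rest on an overlap of 1 bp with TPL peaks of a median width of 565 bp. When every match, that of ICU4 with ATHB8 included, required summits within 100 bp they were 42% and 2.73%, and with 50% of both peaks overlapping they were 12.8% and 0.145%. PHB peaks met 76% (71.8 to 79.8) and 6.72% (5.32 to 8.46), PHV peaks 64.7% (60.1 to 69.1) and 11.9% (10 to 14.1), and REV peaks 70.7% (66.3 to 74.8) and 18.3% (16 to 20.9). None of the 4 lists met 24 shared peaks (5.53%) and 655 unshared ones (66.7%).

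Position relative to genes moved with sharing, so the sites inside genes were also taken alone. There TPL met 90.2% (86.4 to 93) of shared and 10.4% (7.56 to 14.1) of unshared ATHB8 peaks. With the summit outside a gene the shares were 78.8% (70.6 to 85.2) and 3.88% (2.64 to 5.66). REV, PHB and PHV all met 164 of 316 shared ATHB8 peaks inside genes (51.9%) and 0 of 337 unshared ones, where the interval reaches 1.13%.

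**Figure D4:**
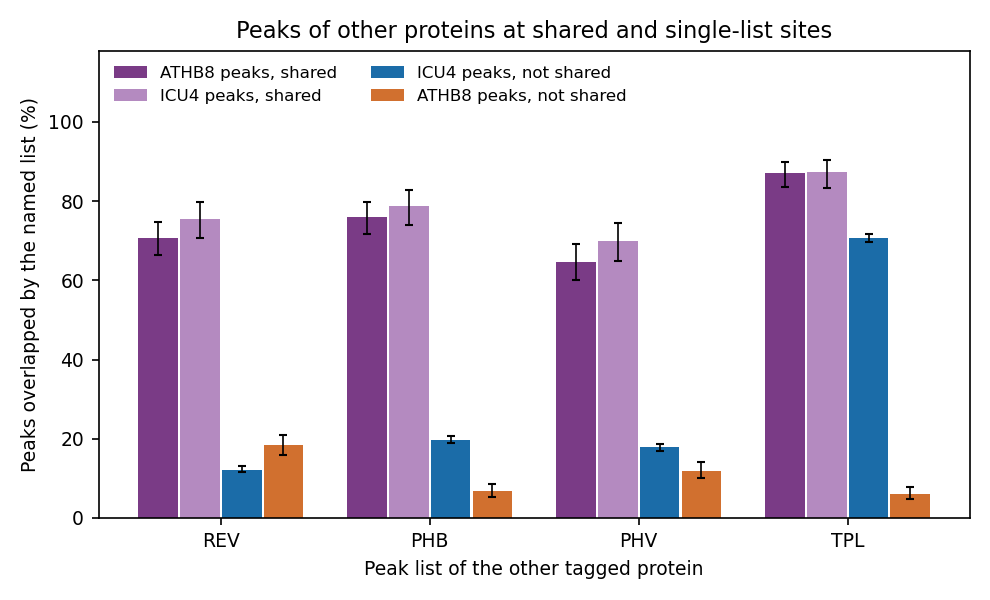
Percentage of near-gene peaks (vertical) overlapped by a peak of REV, PHB, PHV or TPL (horizontal), for ATHB8 and ICU4 peaks that are shared with each other or not. Bars start at 0 and error bars are Wilson 95% intervals. Shared peaks reach 64.7% to 87.3% in every list, unshared ATHB8 peaks 6.11% to 18.3%, and unshared ICU4 peaks 12.2% to 19.7% except for TPL, at 70.6%.

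On the ICU4 side, TPL met 87.3% (83.4 to 90.4) of shared and 70.6% (69.6 to 71.6) of unshared peaks. Because shared ICU4 peaks were strong ones, the strongest 10% of the ICU4 list were compared on their own. Among these, TPL met 98% (95 to 99.2) of 200 shared and 96.4% (94.7 to 97.6) of 641 unshared peaks, with overlapping intervals. REV met 96% (92.3 to 98) and 49.1% (45.3 to 53), PHB 98.5% and 74.6%, and PHV 94.5% and 73%. All 3 of REV, PHB and PHV met 90.5% (85.6 to 93.8) and 39.3% (35.6 to 43.1). The shared peaks of this class were still wider, with a median of 729 bp against 380 bp, and the part of width in these shares was not tested. Among the rest of the ICU4 list, TPL met 71.9% (64 to 78.7) of shared and 68.3% (67.2 to 69.4) of unshared peaks, and REV met 46% (38 to 54.3) and 9.02% (8.39 to 9.7).

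At the level of genes, each peak was given to its nearest protein-coding gene. Of the 27444 nuclear protein-coding genes, 6048 had an ICU4 peak (22.0%), 958 an ATHB8 peak (3.49%) and 441 both (1.61%). These 441 made up 46% of the ATHB8 genes (interval 42.9 to 49.2) and 7.29% of the ICU4 genes (6.66 to 7.97). At 315 of them the peaks overlapped, and at 126 they did not, with a median of 1196 bp between the nearest summits. One of the latter was PRR9, a circadian clock gene, where the ICU4 summit lay 100 bp outside the gene and the ATHB8 summit inside it, 1884 bp away.

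Genes known from HD-ZIPIII biology were described as 22 lists with 293 memberships, covering 288 genes. All list counts are read against the 22.0% of nuclear protein-coding genes with an ICU4 peak and the 3.49% with an ATHB8 peak. At 3.49%, a short list can lack an ATHB8 peak without differing from all genes. The control list, 22 genes for light-harvesting proteins and the small subunit of RuBisCO that are strongly transcribed in seedlings, had 18 members with an ICU4 and 13 with an ATHB8 peak, 12 of them with both. Without it, 130 of 266 listed genes had an ICU4 peak (48.9%), 23 an ATHB8 peak (8.65%) and 19 both. The control list thus had a larger share of members with an ATHB8 peak (59.1%) than any of the other 21 lists. LHCB1.1 had fold enrichments of 5.7 for ICU4 and 4.13 for ATHB8, LHCB1.4 had 4.97 and 3.61, and LHCA2 had 3.66 and 3.61. Members of the LHCB1 and LHCB2 groups are near-identical copies, so reads may be split among them and their values are uncertain.

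**Figure D5:**
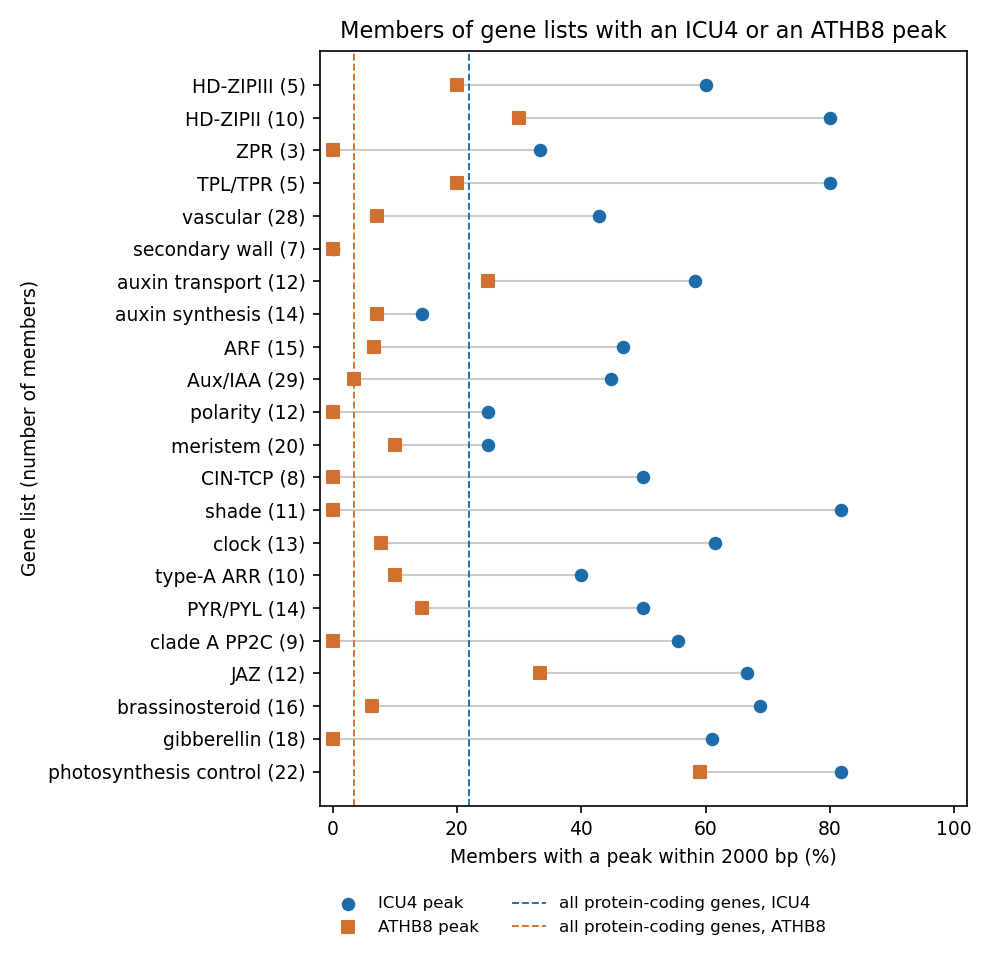
Percentage of the members of each gene list (horizontal; vertical axis, list with its number of members) with an ICU4 peak (circles) or an ATHB8 peak (squares) within 2000 bp. Dashed lines give the share of all nuclear protein-coding genes, 22.0% for ICU4 and 3.49% for ATHB8. The control list stands highest for ATHB8 at 59.1%, followed by JAZ at 33.3%. For secondary wall, a short list of 7 members, both markers lie at 0.

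Among transcription factor genes of leaf polarity and shade, HD-ZIPII genes had an ICU4 peak in 8 of 10 cases (80%, against 22.0% of all genes). An ATHB8 peak was at 3 of them (30%, against 3.49%), each at a shared site outside the gene. HAT2 had fold enrichments of 10.9 for ICU4 and 3.89 for ATHB8, with summits at 19219492 and 19219482 on chromosome 5. HAT1 had 12.2 and 3.46, and HAT22 had 8.23 and 3.31. ATHB2, ATHB4, HAT3, HAT14 and ATHB18 had an ICU4 peak alone. Of the 11 PIF and shade regulators, 9 had an ICU4 peak (81.8%) and none an ATHB8 peak. With an ATHB8 peak at 3.49% of all genes, none among 11 is near that share. The 9 were the phytochrome genes PHYA and PHYB, PIF1, PIF3, PIF4, PIF5, PIF7, PAR1 and PAR2.

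Within the HD-ZIPIII family, PHB had 2 ICU4 peaks outside the gene (fold enrichments 4.18 and 4.69) and PHV 1 (3.87), and neither had an ATHB8 peak. REV was assigned no peak of either protein. Of the LITTLE ZIPPER genes, whose small products block HD-ZIPIII dimers, ZPR3 had an ICU4 peak and none of the 3 an ATHB8 peak. TPL had 2 ICU4 peaks (3.24 inside and 4.74 outside the gene), and of its relatives TPR2 had peaks of both proteins, at 5.81 for ICU4 and 2.63 for ATHB8.

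Of 28 vascular and xylem patterning genes, 12 had an ICU4 peak (42.9%, against 22.0% of all genes) and 2 an ATHB8 peak (7.14%, against 3.49%). The 1 with both was TMO5 (AT3G25710), which encodes a bHLH factor that drives cell divisions in the young vascular tissue. Its ICU4 peak (9369806 to 9369997 on chromosome 3) had a fold enrichment of 3.55 (percentile 68.5) and its ATHB8 peak (9369871 to 9369935) one of 2.84 (percentile 39.6). The summits lay 12 bp apart inside the gene, and no peak of REV, PHB, PHV or TPL overlapped either. The other gene with an ATHB8 peak was ATHB8 itself, the tagged locus, where the part of added construct copies was not tested. The 7.14% thus rests on TMO5 and the tagged locus, too few genes to set it apart from 3.49%. Genes with an ICU4 peak alone included WOX4, VND7, AHP6, SHR, LOG3, LOG4, BRL2, TMO6, PEAR1 and SACL3. None of 7 secondary wall genes of xylem had a peak of either protein. With peaks at 22.0% and 3.49% of all genes, a list this short can lack both without differing from all genes.

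In the auxin lists, peaks of both proteins were found at 3 of 12 transporter genes, the efflux carriers PIN3, PIN4 and PIN7. PIN7 had fold enrichments of 8.61 for ICU4 (percentile 98.4) and 2.34 for the ATHB8 peak of the nearest summit (percentile 9.18), 62 bp apart, while a second ATHB8 peak 88 bp from the ICU4 summit had 3.2 (percentile 63.8). PIN3 had 6.33 and 2.92, 103 bp apart. At PIN4 the peaks did not overlap, as the ICU4 summit lay inside the gene and that of ATHB8 592 bp outside it, with 3.42 and 3.61. Peaks of both proteins were at 1 of 15 auxin response factor genes, ARF2, and 1 of 29 Aux/IAA repressor genes, IAA2 (8.83 and 3.14). ICU4 peaks were at 7 and 13 of these (46.7% and 44.8%), against 22.0% of all genes. The ATHB8 shares of these lists were 6.67% and 3.45%, the latter near the 3.49% of all genes. Of 14 auxin synthesis genes, YUC8 and YUC9 had an ICU4 peak, and TAR1 an ATHB8 peak, at 3.41 and 1545 bp outside the gene.

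JAZ genes, whose products repress jasmonate responses, had an ICU4 peak in 8 of 12 cases (66.7%, against 22.0% of all genes). An ATHB8 peak was at 4 of them (33.3%, against 3.49%), all 4 at shared sites. JAZ3 (AT3G17860) had fold enrichments of 19.2 for ICU4 and 3.73 for ATHB8, JAZ7 had 3.01 and 3.21, JAZ1 had 3.8 and 2.72, and JAZ6 had 3.17 and 2.6. At JAZ7 the ATHB8 percentile (65.9) was above that of ICU4 (39.9), and at the other 3 it was below. Further genes of the same hormone, named after their values were seen, had peaks of both: MYC2, the synthesis gene AOS (4.74 and 2.81), and CYP94B3 (6.71 and 2.62), CYP94C1 (3.12 and 2.89) and CYP94B1 (2.66 and 2.92), whose products inactivate jasmonoyl-isoleucine. A stronger ATHB8 peak under the ICU4 peak of CYP94B3 had 4.32. At CYP94B1 the peaks did not overlap, and their summits were 139 bp apart.

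The other hormone lists are read against the 22.0% of all genes with an ICU4 and the 3.49% with an ATHB8 peak. Gibberellin genes had 11 of 18 members with an ICU4 peak and none with an ATHB8 peak, among them the DELLA repressor genes GAI, RGA, RGL1, RGL2 and RGL3. Clade A PP2C phosphatases of abscisic acid signalling had 5 of 9 and none. Brassinosteroid genes had 11 of 16 and 1, the receptor gene BRI1 (8.32 for ICU4, 2.31 for ATHB8). Abscisic acid receptor genes had 7 of 14 and 2, PYL4 at a shared site (3.55 and 3.32) and PYL10 with an ATHB8 peak alone (2.73), so 14.3% of members had an ATHB8 peak. Type-A cytokinin response regulators had 4 of 10 and 1, ARR8 (4.05 and 3.18).

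In the developmental lists, 5 of 20 shoot meristem and boundary genes had an ICU4 peak (25%, near the 22.0% of all genes). An ATHB8 peak was at 2 of the 20 (10%, against 3.49%). BLR, a homeodomain gene that maintains the meristem, had both (10.9 and 3.61, summits 42 bp apart). KNAT1, a knotted-like homeobox gene, had an ATHB8 peak alone (3.25, 800 bp outside the gene). Leaf polarity genes had 3 of 12 and none, CIN-type TCP genes 4 of 8 and none, and clock genes 8 of 13 and 1. For ICU4 these shares were 25%, again near that of all genes, 50% and 61.5%. None among 12 or 8 members is near the 3.49% of all genes with an ATHB8 peak.

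Gene families read from the symbols of the gene table, chosen after seeing the data, gave further counts. Of 71 WRKY genes, transcription factors of defence and stress, 27 had an ICU4 peak, 10 an ATHB8 peak and 8 both, among them WRKY40 (5.6 for ICU4, 3.11 for ATHB8) and WRKY33 (5.49 and 2.64). Of 48 genes named as ERF, DREB, CBF or RAP2 factors, 28 had an ICU4 peak, 6 an ATHB8 peak and 5 both. The 125 MYB genes had 22, 2 and 1, the 100 NAC genes 31, 3 and 3, and the 247 cytochrome P450 genes 61, 10 and 7. In this order, the families had ATHB8 shares of 14.1%, 12.5%, 1.6%, 3% and 4.05%, where all genes had 3.49%. Their ICU4 shares were 38%, 58.3%, 17.6%, 31% and 24.7%, where all genes had 22.0%. The shares with both were 11.3%, 10.4%, 0.8%, 3% and 2.83%, where all genes had 1.61%. These are counts by nearest gene, and the peaks of a gene need not overlap. At WRKY6 and WRKY15 they did not, with 3302 and 1875 bp between the nearest summits.

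Genes assigned a peak of one protein only were ranked by their strongest peak. For ICU4 these were THH1 (fold enrichment 19.6), MYB77 (16.5), a transcription factor gene of the auxin response, the serine hydroxymethyltransferase gene SHM6 (14.4), AT5G02970 (14), the beta-xylosidase gene BXL2 (11.4) and AGL19 (11.3), a MADS-box gene that promotes flowering. The THH1 peak is nonetheless a shared site, since it overlaps an ATHB8 peak (2.8, summits 73 bp apart) whose nearest gene was PER4. Of the 339 pairs, 7 were divided in this way between neighbouring genes. Each of the 6 ICU4 peaks overlapped a PHB and a TPL peak, and all but SHM6 a REV and a PHV peak as well. Of all unshared ICU4 peaks in the strongest 10% of their list, PHB met 74.6%, TPL 96.4%, REV 49.1% and PHV 73%. For ATHB8 they were AT5G30341 (5.56), NRPE3B (5.52), which encodes a variant subunit of a plant-specific RNA polymerase, AT5G38040 (5.36), AT3G05410 (5.05), AT1G45215 (4.95) and AT5G28442 (4.95). None of these 6 overlapped a PHB or a TPL peak, which met 6.72% and 6.11% of all unshared ATHB8 peaks. AT5G30341, NRPE3B and AT5G28442 lay at a REV peak, and NRPE3B at a PHV peak too. Of all unshared ATHB8 peaks, REV met 18.3% and PHV 11.9%. The absence of a peak in a list is not a measurement of absent binding, and read depth is unknown.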

How the data were processed

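The members of the comparison, the gene lists and the rule for naming genes were chosen with earlier results of these data known. The tools named are Bowtie2 for reads and MACS2 for peaks, with the build TAIR10, per the submitters' processing notes. Versions, settings and the pooling of the duplicates are not stated there. TAIR10 is the genome of the Columbia ecotype, while the seedlings were Ler. The fold enrichment given by the authors is a ratio of precipitate to local background on a linear scale, the deposited p-value and q-value columns are −log10 values, and the deposited pileup is a coverage signal of unstated scale. Depth is unknown.

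Peaks were analysed in Python 3.11.15 with pandas 2.3.3 and SciPy 1.17.1. Genes came from a RefSeq gene table (TAIR10.1) with 27444 protein-coding genes on the nuclear chromosomes and neither strand nor sequence, so no promoter classes, motifs or sequences are given. Each summit was assigned to the nearest protein-coding gene within 2000 bp. Coordinates are those of the files, on TAIR10. Percentiles were computed within a list. Background was computed as (pileup + 1)/fold enrichment − 1. The functions were checked on simulated lists. The genes named were the HD-ZIPIII genes and TPL, the 12 shared sites of best mean percentile and the 5 of largest difference each way. Also named were the 3 of largest offset and the 6 strongest genes of a single list. Up to 3 members per gene list with peaks of both proteins were added. Other list members are named because their list's counts are given. JAZ6, DIN10, ASN1 and ATCTH, AT3G15450 and the cytochrome P450 and WRKY genes were named after their values were seen.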

Additional observations from a re-analysis of the deposited data

Results flagged for a closer look

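The ICU4 list held 75 peaks on the chloroplast chromosome, which none of the comparisons use, and the ATHB8 list held 0. They stood out as signal outside the data compared. Their median fold enrichment was 1.43 and the highest 1.66, below the 3.17 that was the median of ICU4 peaks near nuclear genes. The ICU4 list also had 2 peaks on the mitochondrial chromosome. Of the other 4 lists, REV had 1 mitochondrial peak and none had a chloroplast peak.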

How the results depend on the processing

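Of 76 values recomputed under other settings, 46 stayed within the interval of the main value, or within 1.5 times it for counts of genes, and 30 moved; the cause was not tested. No paired analysis was possible because there was 1 list per protein and no replicate number in the labels. No replicate could be left out, and depth is unknown, so sites below the reach of a list are not resolved. With summits within 100 bp in place of 1 bp of overlap, 17.3% of ATHB8 and 2.85% of ICU4 peaks were shared, the median ICU4 percentile of shared peaks was 95.8, the median offset, bounded by construction, 43 bp, and TPL, matched the same way, met 42% of shared and 2.73% of unshared ATHB8 peaks. With an overlap of 50% of both peaks these shares were 2.75%, 0.469%, 12.8% and 0.145%, the median ATHB8 percentile was 62.6 and the median offset 50 bp. Among peaks above each list's median q-value rank, 24.8% of ATHB8 peaks were shared, 185 genes had both and TPL met 94.3% of shared ATHB8 peaks. With the ICU4 list reduced to the ATHB8 length, 22.1% of ATHB8 and 16.2% of ICU4 peaks were shared at a median ICU4 percentile of 86.5, 245 genes had both, and TPL met 96.5% and 12.3% of shared and unshared ATHB8 peaks. Within 1000 bp of a gene 38.3% of ATHB8 peaks were shared, and TPL met 8.02% of unshared ones. Inside genes these values were 47.5% and 12%, TPL met 90% of shared ATHB8 peaks, their median percentile was 53.2 and 252 genes had both. Without gene-poor surroundings 34.2% of ATHB8 peaks were shared. With every gene within 2000 bp counted, 862 genes had both. Of the 12 best-ranked shared genes, 11 remained with summits within 100 bp, 6 with 50% overlap and 10 inside genes, and all 12 under the other 5 alternatives tried on them.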

Other observations

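At 24 shared ATHB8 peaks no REV, PHB, PHV or TPL peak was met, and their genes were looked up after the values were seen. Beside AT5G01160, AT1G62610, AT3G28430 and TMO5 they included OFP9, an OVATE family repressor gene (ATHB8 fold enrichment 3.99), NSP4, a nitrile-specifier gene of glucosinolate breakdown (3.31), PGY2, a ribosomal protein gene (3), and IPMI1, an isopropylmalate isomerase gene (2.8). AT1G33120 (3.1) and PGY2, also called AT1G33140, lie close together on chromosome 1, with summits at 12010178 and 12022586. The ATHB8 percentiles of the 24 ran from 3.67 to 98.9.

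Families tied to the cell wall and to water transport, read from gene symbols after the data were seen, gave counts that are read against 22.0% of all genes for ICU4 and 3.49% for ATHB8. Of 31 arabinogalactan protein genes, 17 had an ICU4 peak and 2 an ATHB8 peak, AGP20 and AGP1, each with an ICU4 peak too, which is 6.45% for ATHB8. Of 33 xyloglucan endotransglucosylase/hydrolase genes, 11 had an ICU4 peak and TCH4 alone had both, which is 3.03% for ATHB8 and near the share of all genes. Of 31 expansin genes, 9 had an ICU4 peak and none an ATHB8 peak, which at 3.49% of all genes is not far from that share. Of 35 aquaporin genes, 16 had an ICU4 peak and 3 both, which is 8.57% for ATHB8. Of 64 glycosyltransferase genes named UGT, 29 had an ICU4 peak, 2 an ATHB8 peak and 1 both. That is 3.12% for ATHB8, again near the share of all genes. Peaks are counted by nearest gene, so the peaks of a gene with both need not overlap.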
